A study of Mus musculus with 8 samples.

Results

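The enzymes that turn squalene into cholesterol were followed in mouse liver through 9 genes taken by their place in the pathway: Sqle, Lss, Cyp51, Msmo1, Nsdhl, Hsd17b7, Ebp, Sc5d and Dhcr7. All 9 were found, each on a single row, among the 24545 rows of the deposited table, and all 9 passed the filter on low values (at least 1 FPKM in at least 2 libraries) that left 11463 features for testing. FPKM is the fragment density per length of transcript, scaled to the depth of the library, so levels can be compared between genes. The data are RNA sequencing of whole liver from male C57Bl/6J mice in 4 groups of 2 biological replicates. The groups were ApoE-Cyp7a1 transgenic mice given LPS, untreated ApoE-Cyp7a1 transgenic mice, wild-type mice given LPS and untreated wild-type mice. LPS is lipopolysaccharide, a bacterial endotoxin, injected daily at 1.5 mg/kg over 7 days. The series describes the transgene as liver specific. The ages, the number of transgenic founder lines, the species of the transgene and any vehicle injection were not stated in what was read for this account. With whole liver, a change in the mix of cells and a change in RNA per cell cannot be told apart.

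Cholesterol is built in an upper arm that runs through mevalonate to squalene and a lower arm that runs from squalene to cholesterol. In the lower arm squalene is oxidised and closed into the ring system of lanosterol, which then loses methyl groups and has its double bonds moved and reduced. The genes of both arms are known targets of SREBP2, a transcription factor held in the endoplasmic reticulum while membrane sterol is plentiful and released when it runs low. Cyp7a1, the enzyme encoded by the transgene, begins the main route by which liver turns cholesterol into bile acids.

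The Cyp7a1 row was read as a check of the genotype labels, although it is not known whether fragments of the transgene are counted in it. It held 73.5 and 70.2 FPKM in transgenic liver with LPS and 64.7 and 78.5 FPKM in untreated transgenic liver, against 19.9 and 27.9 FPKM in wild-type liver with LPS and 24.9 and 49.1 FPKM in untreated wild-type liver. All 4 transgenic libraries lay above all 4 wild-type libraries. Of 10 hepatocyte markers 9 were measured and Alb was listed at 0 in every library, so it was not read as absent. The other hepatocyte markers summed to 17087 to 18691 FPKM in transgenic liver with LPS and 21234 to 24391 FPKM in untreated transgenic liver, against 18561 to 18790 FPKM in wild-type liver with LPS and 24750 to 31475 FPKM in untreated wild-type liver. Library totals were 406668 to 457779 FPKM (transgenic, LPS), 500765 to 525200 FPKM (transgenic, untreated), 461001 to 469644 FPKM (wild type, LPS) and 543010 to 580051 FPKM (wild type, untreated). Fragment counts were not used here, so the depth behind each value is unknown.

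The start regions of 3 of the genes are shown, since the 9 genes share a pathway and most of them moved together between libraries. In untreated mice Msmo1 and Cyp51 had large genotype differences, and Ebp had the smallest of the 9. The sequences are from RefSeq on build GRCm38.p6, 250 bases before to 50 after the annotated start, written 5′ to 3′ on the strand of the gene, and each of these 3 genes lies on the minus strand. Capitals mark CCAAT or its reverse complement, the box bound by NF-Y, a partner of SREBP2 at many promoters.
Msmo1, chr8:64733529-64733828:
Msmo1: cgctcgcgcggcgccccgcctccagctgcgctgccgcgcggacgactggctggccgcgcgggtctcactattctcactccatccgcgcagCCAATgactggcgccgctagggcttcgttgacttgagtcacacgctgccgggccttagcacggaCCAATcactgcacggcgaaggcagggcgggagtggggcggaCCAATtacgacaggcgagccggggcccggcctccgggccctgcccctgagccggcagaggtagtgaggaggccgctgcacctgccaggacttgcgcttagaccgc
Cyp51, chr5:4104648-4104947:
Cyp51: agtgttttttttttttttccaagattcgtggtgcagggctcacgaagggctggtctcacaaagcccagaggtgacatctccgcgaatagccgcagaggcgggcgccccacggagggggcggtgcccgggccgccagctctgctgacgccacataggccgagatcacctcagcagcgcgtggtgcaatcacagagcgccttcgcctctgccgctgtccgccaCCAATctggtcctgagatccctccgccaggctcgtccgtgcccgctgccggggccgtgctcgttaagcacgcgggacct
Ebp, chrX:8193463-8193762:
Ebp: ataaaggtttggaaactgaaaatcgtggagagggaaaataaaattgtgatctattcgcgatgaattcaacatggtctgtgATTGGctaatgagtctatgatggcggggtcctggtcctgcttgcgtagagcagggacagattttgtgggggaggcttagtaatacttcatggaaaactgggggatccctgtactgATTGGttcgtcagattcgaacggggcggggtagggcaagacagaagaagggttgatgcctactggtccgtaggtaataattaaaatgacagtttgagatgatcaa

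RefSeq start regions were at hand for 8 of the 9 genes, with none used for Sqle. CCAAT on either strand was found for 8 of 8 genes, in 8 of their 10 listed start regions, while 37.4% of all 32851 start regions of that length held it. The GC box, searched as GGGCGG on either strand, was found for 8 of 8 genes, in 9 of their 10 listed start regions, and in 35.7% of all start regions. A strict sterol element, searched as TCACNCCAC on either strand, was found for 0 of 8 genes and in 1.24% of all start regions. None of the 3 motifs contains another. Of the genes shown, Msmo1 carried 3 CCAAT boxes, Ebp 2 and Cyp51 1. These genes were picked by their untreated genotype differences, so a relation of those differences to the box count was not tested.

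The first question was what the Cyp7a1 transgene did to these enzymes without LPS. The mean level of 8 of the 9 genes in untreated transgenic liver was 2.69 to 36.4 times that in untreated wild-type liver, and both transgenic libraries lay above both wild-type libraries for all 8. Ebp was the exception. Over all features tested, 15.4% had both untreated transgenic libraries above both untreated wild-type libraries. The summed FPKM of the 9 genes was 1134 and 1073 in untreated transgenic liver, against 244 and 237 in untreated wild-type liver.

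Sqle, squalene epoxidase, catalyses the entry step of this arm and lies on chromosome 15 from 59315092 to 59331193 (GRCm38.p6, as for all positions here). It held 126 and 102 FPKM in untreated transgenic liver, against 3.47 and 2.78 FPKM in untreated wild-type liver. The ratio of means was 36.4, and the difference on the log2(FPKM + 1) scale was 4.80 (SE 0.67), with 2 of the 11463 features rising by more. Lss, the cyclase that makes lanosterol (chromosome 10, 76531565 to 76557139), held 51.9 and 33.8 FPKM in untreated transgenic liver, against 5.39 and 3.74 FPKM in untreated wild-type liver. Its log2 difference was 2.96 (SE 0.39). These 2 genes open the arm, and their libraries did not overlap between genotypes.

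Next come the genes whose enzymes remove methyl groups from lanosterol. Cyp51, the lanosterol demethylase of the cytochrome P450 family (chromosome 5, 4080674 to 4104697), held 101 and 83.1 FPKM in untreated transgenic liver, against 5.25 and 3.88 FPKM in untreated wild-type liver, a log2 difference of 4.06 (SE 0.60). Msmo1, a sterol methyl oxidase (chromosome 8, 64718123 to 64733578), held 355 and 363 FPKM, against 17.7 and 20.6 FPKM in untreated wild-type liver, a log2 difference of 4.16 (SE 0.76). In untreated transgenic liver Msmo1 had the highest level of the 9 genes. Nsdhl, a sterol dehydrogenase (chromosome X, 72918521 to 72958528), held 62.0 and 52.3 FPKM in untreated transgenic liver, against 4.77 and 4.38 FPKM in untreated wild-type liver, a log2 difference of 3.38 (SE 0.53). Hsd17b7, the keto-sterol reductase of the same demethylation steps (chromosome 1, 169949535 to 169969242), held 75.0 and 72.5 FPKM, against 13.4 and 19.9 FPKM in untreated wild-type liver, a log2 difference of 2.11 (SE 0.34). In all 4 of these genes the lower transgenic library exceeded the higher wild-type library by a wide margin.

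The last genes act on the double bonds of the sterol rings. Sc5d, sterol desaturase (chromosome 9, 42251592 to 42264300), held 186 and 210 FPKM in untreated transgenic liver, against 67.3 and 79.9 FPKM in untreated wild-type liver, a log2 difference of 1.42 (SE 0.58). Dhcr7, dehydrocholesterol reductase (chromosome 7, 143823167 to 143848410), held 68.3 and 62.4 FPKM, against 13.2 and 18.1 FPKM in untreated wild-type liver, a log2 difference of 2.01 (SE 0.42). Ebp, the sterol isomerase (chromosome X, 8185329 to 8193512), held 109 and 95 FPKM in untreated transgenic liver, against 113 and 84.3 FPKM in untreated wild-type liver. Its libraries overlapped, with a log2 difference of 0.06 and a 95% confidence interval of -0.37 to 0.49. Ebp was the most abundant of the 9 in untreated wild-type liver.

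**Figure D1:**
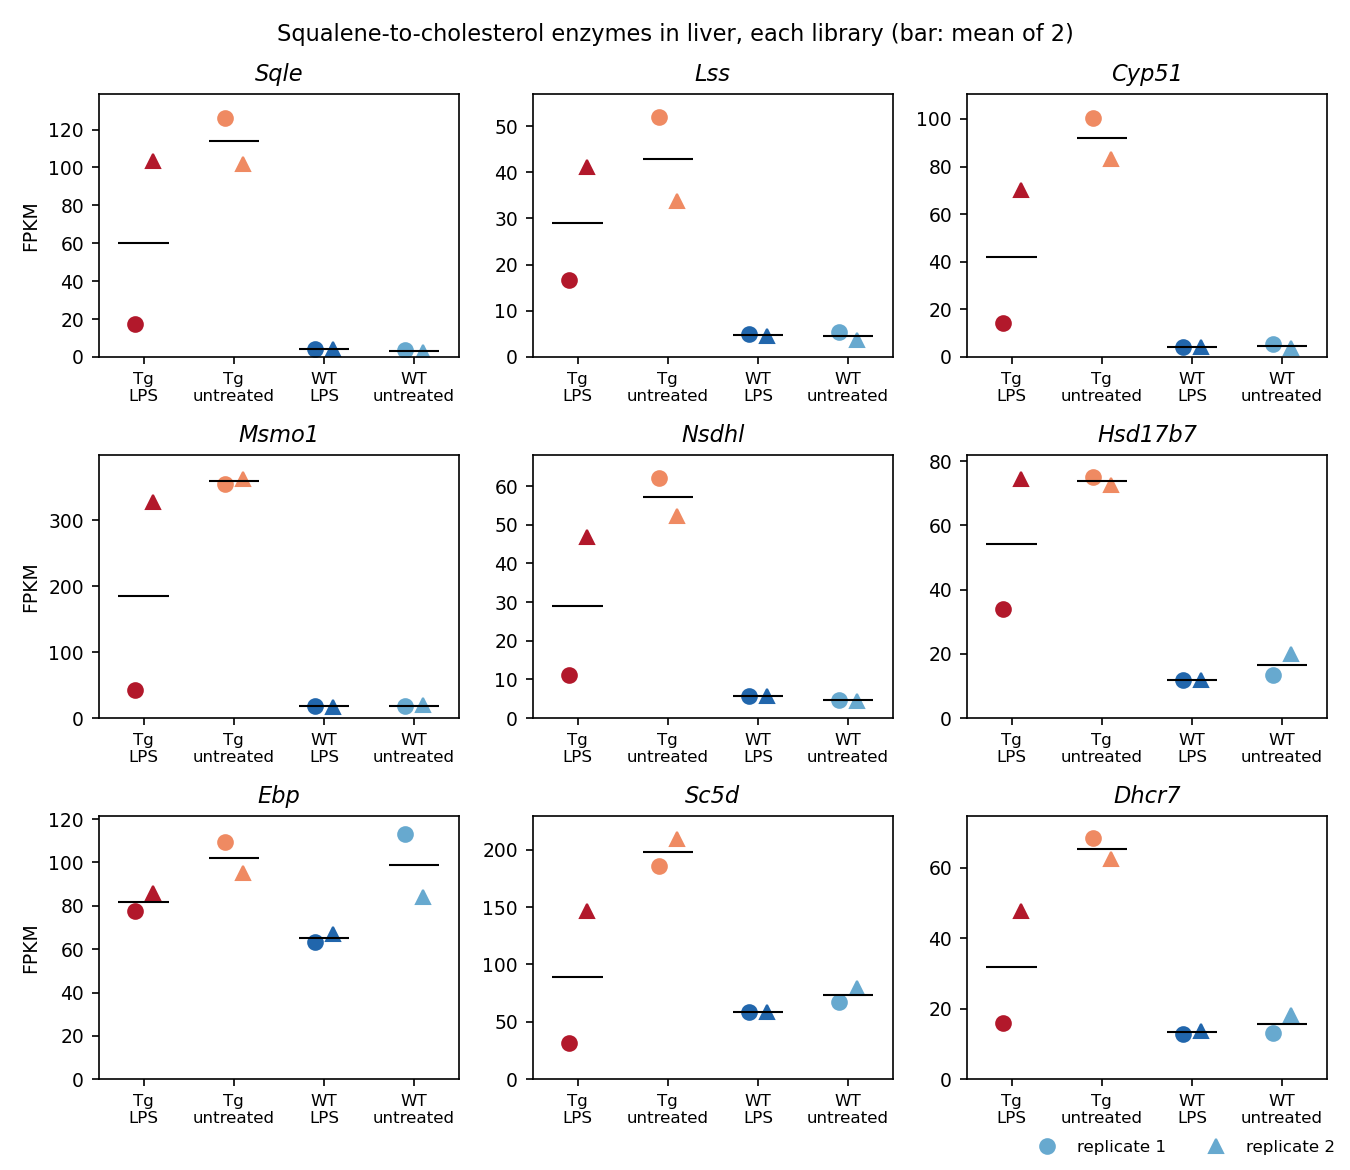
FPKM of each of the 9 genes on a linear axis in every library, with circles for replicate 1, triangles for replicate 2 and a bar at the mean of 2; Tg is ApoE-Cyp7a1 transgenic and WT is wild type. Both untreated transgenic libraries stand above all wild-type libraries in 8 panels, Ebp does not follow this, and in 8 panels replicate 1 of transgenic with LPS falls well below replicate 2.

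None of the 9 genes passed in the untreated genotype contrast in limma at a Benjamini-Hochberg adjusted p under 0.05, where 7 of 11463 features did (0.0611%), 3 higher (0.0262%) and 4 lower (0.0349%). At an unadjusted p under 0.05 there were 8 of 9 genes and 631 features. Adjusted p ran from 0.111 for Lss to 0.338 for Dhcr7 in 7 genes, and was 0.865 for Sc5d and 1 for Ebp. The spread in this fit is shared by all 4 groups, and it includes the gap between the 2 transgenic LPS libraries described further on. When only the 4 untreated libraries were fitted, 5 of the 9 genes passed (22 features in all), namely Sqle (adjusted p = 0.00489), Msmo1 (0.00489), Cyp51 (0.00775), Nsdhl (0.00775) and Lss (0.0488). When either transgenic LPS library was left out of the full fit, 8 of the 9 passed, with Ebp as the exception, beside 44 features in all. With the no-filter setting 0 features passed. Of the 9 genes 0 passed with a pseudocount of 0.1 (8 features in all), a filter of 5 FPKM (5 features) or quantile normalization (7 features). With FPKM rescaled to a common total 2 of the 9 passed, beside 12 features in all.

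Markers of the neighbouring pancreas varied widely between single untreated libraries. The 7 pancreas markers summed to 920 to 4443 FPKM in untreated transgenic liver, against 70.8 to 1212 FPKM in untreated wild-type liver. These ranges overlapped, and the median log2 difference of the 7 markers was 2.78, against 2.96 for the 9 enzymes. In limma 0 of the 7 markers passed in the untreated genotype contrast, also at an unadjusted p under 0.05. The part of the pancreas markers in the genotype difference of the enzymes was not tested. In the libraries with LPS the same sum was 24.7 to 127 FPKM in transgenic and 74.6 to 180 FPKM in wild-type liver.

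With LPS in both genotypes the transgenic mean was 1.25 to 14.3 times the wild-type mean. Sqle held 17.2 and 103 FPKM in transgenic liver with LPS, against 4.37 and 4.07 FPKM in wild-type liver with LPS, a log2 difference of 3.06 (SE 0.67). Cyp51 held 14.1 and 70.0 FPKM in transgenic liver with LPS, against 4.16 and 4.15 FPKM in wild-type liver with LPS, and Msmo1 held 42.7 and 328 FPKM, against 18.8 and 17.2 FPKM in wild-type liver with LPS. Both transgenic libraries were above both wild-type libraries for 8 of the 9 genes, while 22% of all features showed this. The exception was Sc5d, which held 32.0 and 147 FPKM in transgenic liver with LPS, against 58.8 and 58.3 FPKM in wild-type liver with LPS, so that the wild-type libraries lay between the transgenic ones.

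For the rest the libraries were apart but the gaps were of unequal size. Lss held 16.8 and 41.2 FPKM in transgenic liver with LPS, against 4.93 and 4.45 FPKM in wild-type liver with LPS. Nsdhl held 11.1 and 46.9 FPKM, against 5.67 and 5.68 FPKM in wild-type liver with LPS. Hsd17b7 was at 33.9 and 74.6 FPKM in transgenic liver with LPS and at 11.8 FPKM in both wild-type libraries with LPS. Dhcr7 was at 16.1 and 47.6 FPKM, against 12.9 and 13.7 FPKM in wild-type liver with LPS, and Ebp at 77.6 and 85.7 FPKM, against 63.4 and 67.1 FPKM. In this contrast 0 of 11463 features passed in limma (0%), among them none of the 9 genes, whose smallest adjusted p was 0.228 for Lss and Hsd17b7. At an unadjusted p under 0.05 there were 7 of 9 genes and 1402 features. Without either transgenic LPS library 6 of the 9 passed, with 21 features in all without replicate 1 and 425 without replicate 2.

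**Figure D2:**
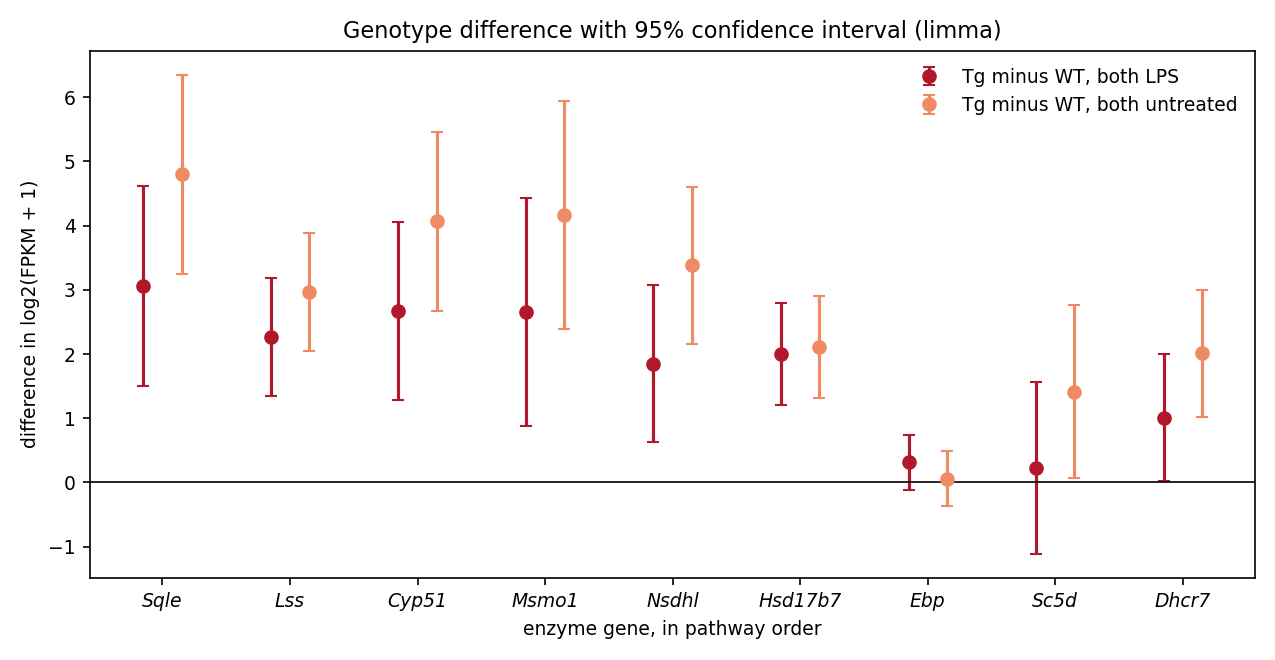
Transgenic minus wild-type difference in log2(FPKM + 1) for each of the 9 genes, with LPS (dark red) and untreated (orange), as points with 95% confidence intervals from the limma fit to all 8 libraries. The intervals lie above 0 in both treatments for 7 genes, Ebp spans 0 in both, and Sc5d spans 0 with LPS.

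Averaged over both treatments, 4 of the 9 genes were higher in transgenic liver at an adjusted p under 0.05, where 16 of 11463 features passed (0.14%), 8 of them higher (0.0698%) and 8 lower. They were Sqle, with a log2 difference of 3.93 (SE 0.47, adjusted p = 0.0426 in limma), Cyp51 with 3.37 (SE 0.42, adjusted p = 0.0435), Lss with 2.62 (SE 0.28, adjusted p = 0.0426) and Hsd17b7 with 2.06 (SE 0.24, adjusted p = 0.0426). In these 4 genes, and in Msmo1 and Nsdhl, the lowest transgenic library exceeded the highest wild-type one, as in 0.829% of all features. Msmo1 differed by 3.41 (adjusted p = 0.108) and Nsdhl by 2.62 (adjusted p = 0.0705). Sqle had the largest rise of all features in this average, and 5 of the 9 genes were among the 10 largest.

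For Dhcr7 the average difference was 1.51 (SE 0.30, adjusted p = 0.207), and its lowest transgenic library, at 16.1 FPKM, was below the highest wild-type library, at 18.1 FPKM. For Sc5d it was 0.82 (SE 0.41, adjusted p = 0.784). For Ebp it was 0.19, with a 95% confidence interval of -0.11 to 0.49 and an adjusted p of 0.853. The median difference of the 9 genes was 2.62, against -0.01 over all features tested. The 4 calls lie close to the threshold. All 4 ended with no filter on low values, and without either library of untreated wild type, of wild type with LPS or of untreated transgenic mice. With FPKM rescaled to a common total, 70.4% of the features called were higher, against 50% as deposited.

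The second question was what LPS did to the enzymes in transgenic mice, and here the 2 LPS libraries stood far apart. Replicate 1 of transgenic with LPS held 12.99% (Msmo1) to 45.4% (Hsd17b7) of the level of replicate 2 in 8 of the 9 genes, and 90.6% for Ebp. The summed FPKM of the 9 genes was 261 in replicate 1 and 945 in replicate 2, against 1134 and 1073 in untreated transgenic liver. Replicate 2 held 72.9% to 101% of the mean of untreated transgenic liver in the 9 genes. Replicate 1 held 11.9% to 46.0% of that mean in the 8 genes other than Ebp.

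**Figure D3:**
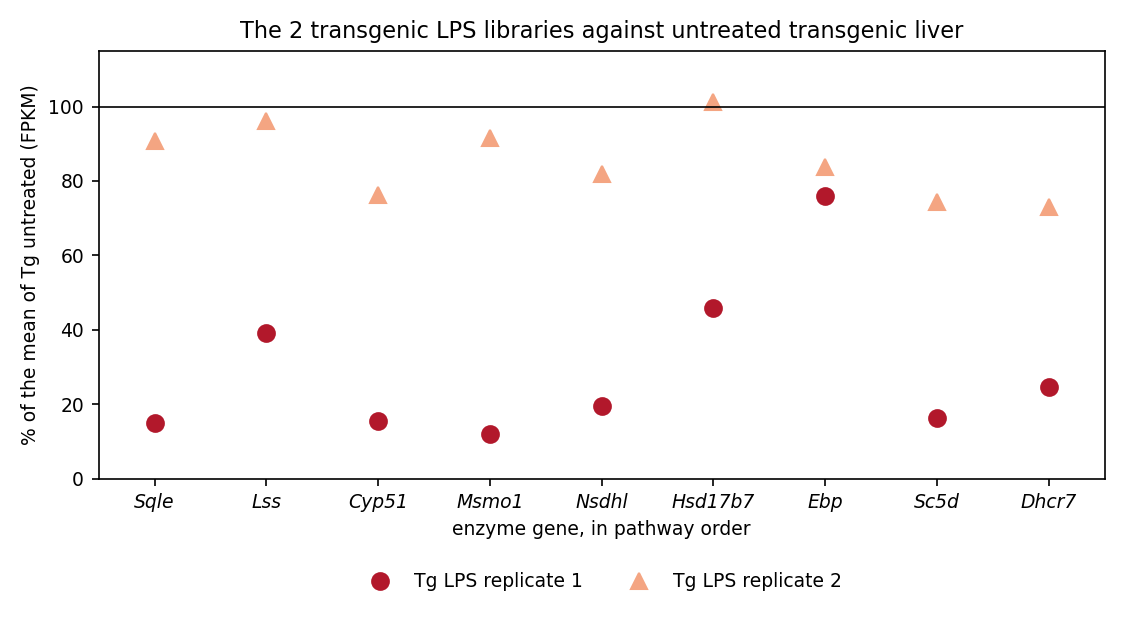
Level of each of the 9 genes in the 2 transgenic LPS libraries as a percent of the mean FPKM of untreated transgenic liver, which is the line at 100. Replicate 2 lies at 72.9% to 101%, and replicate 1 lies at 11.9% to 46.0% in all but Ebp.

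Across the whole table these replicates were no further apart than those of untreated wild type. Over all features tested the SD of the log2 difference between replicates was 0.467 in transgenic with LPS, 0.314 in untreated transgenic, 0.233 in wild type with LPS and 0.484 in untreated wild type. For Msmo1 replicate 1 minus replicate 2 was -2.92 on the log2 scale, and 0.0785% of features had a value that low or lower. It was -2.52 for Sqle, -2.23 for Cyp51, -2.16 for Sc5d and -1.98 for Nsdhl. Cyp7a1 itself held 73.5 and 70.2 FPKM in these libraries, and the hepatocyte markers summed to 18691 FPKM in replicate 1 and 17087 FPKM in replicate 2. Macrophage markers summed to 1139 to 1175 FPKM in the 2 libraries. Other marker sums did differ between replicate 1 and replicate 2, at 1.92 and 14.4 FPKM for adipose, 127 and 24.7 FPKM for pancreas, 276 and 177 FPKM for neutrophil and 67 and 42.2 FPKM for plasma and B cell markers. Their part in the gap between the enzymes' levels was not tested.

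None of the 9 genes passed for LPS in transgenic mice in limma, where 3034 features did (26.5%), with 16% of features higher and 10.5% lower, and 4 of the 9 had an unadjusted p under 0.05 beside 4534 features. The log2 differences ran from -1.58 for Msmo1 to -0.32 for Ebp, with a median of -1.27, against -0.04 over all features tested. Dhcr7 had the smallest adjusted p (-1.20, SE 0.42, adjusted p = 0.0735), and Sc5d differed by -1.51 (adjusted p = 0.0937). Both LPS libraries lay below both untreated transgenic libraries for 6 of the 9 genes, while 36.2% of all features showed this. Without replicate 2 of transgenic with LPS the log2 differences ran from -3.04 for Msmo1 to -0.39 for Ebp. Without replicate 1 they ran from -0.45 for Dhcr7 to 0.017 for Hsd17b7. Each of these fits keeps 1 transgenic LPS library, so the gap between the 2 replicates is not in its spread.

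In wild-type mice the 9 genes spanned a wide range of levels, with Ebp, Sc5d and Msmo1 the most abundant. The highest of the 4 wild-type libraries was 1.20 to 1.79 times the lowest in each of the 9 genes. Sqle held 4.37 and 4.07 FPKM with LPS, against 3.47 and 2.78 FPKM untreated, and Msmo1 held 18.8 and 17.2 FPKM with LPS, against 17.7 and 20.6 FPKM untreated. Ebp held 63.4 and 67.1 FPKM with LPS, against 113 and 84.3 FPKM untreated, the largest LPS difference of the 9 in wild type at -0.57 (SE 0.18, adjusted p = 0.0632). None of the 9 genes passed in limma, where 2481 features did (21.6%), with 16.2% of features higher and 5.41% lower, and 1 of the 9 (Ebp) had an unadjusted p under 0.05 beside 4097 features. Both LPS libraries lay below both untreated ones for 3 of the 9 genes (34% of all features) and above them for 2 (30.5%). The 95% confidence interval of Sqle ran from -1.21 to 1.90. Without replicate 2 of untreated wild type Ebp passed in wild type (-0.79, adjusted p = 0.026 in limma).

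Averaged over both genotypes, Ebp fell with LPS by 0.45 on the log2 scale (SE 0.13, adjusted p = 0.0311 in limma), the only call among the 9, where 4177 features passed (36.4%) and 15.8% were lower. Its call ended with quantile normalization and with FPKM rescaled to a common total. It also ended without any 1 of 5 libraries, namely either library of wild type with LPS, either of untreated transgenic, or replicate 1 of transgenic with LPS. Macrophage markers moved with LPS as well, at 1139 to 1175 FPKM in transgenic liver with LPS against 118 to 174 FPKM in untreated transgenic liver, and at 1291 to 1343 FPKM in wild-type liver with LPS against 90.9 to 182 FPKM in untreated wild-type liver. Of 8 macrophage markers tested 7 rose with LPS in each genotype in limma, as did 6 of 6 neutrophil, 5 of 5 plasma and B cell and 4 of 6 stellate and matrix markers. Of 7 pancreas markers 7 fell with LPS in transgenic mice, 0 passed in wild type and 5 fell in the average. Of 9 hepatocyte markers 3 fell in the average over genotypes, and Ebp fell there too. The part of these cell markers in the LPS differences of the enzymes was not tested. Rescaling moved the median LPS difference of all features by over 0.1 on the log2 scale, to 0.18 in transgenic and 0.19 in wild-type mice, against -0.04 and -0.05 as deposited. It also moved the share of called features that were higher with LPS to 80.9% in transgenic and 95.4% in wild-type mice, against 60.4% and 75.0% as deposited.

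The LPS difference in transgenic minus that in wild-type mice passed for none of the 9 genes in limma, and for 1 feature in all (0.00872%). At an unadjusted p under 0.05 there were 0 of 9 genes and 1189 features. The values ran from -1.74 for Sqle (SE 0.94, adjusted p = 0.553) to 0.26 for Ebp, and Nsdhl had -1.53 (SE 0.74, adjusted p = 0.52). The values hung on which transgenic LPS library was kept. Without replicate 2 of transgenic with LPS, Sqle had -3.00 and Nsdhl -2.52. Without replicate 1 they had -0.48 and -0.54.

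The order of the levels also differed between genotypes. In untreated transgenic liver the order from high to low was Msmo1, Sc5d, Sqle, Ebp, Cyp51, Hsd17b7, Dhcr7, Nsdhl and Lss. In untreated wild-type liver it was Ebp, Sc5d, Msmo1, Hsd17b7, Dhcr7, Nsdhl, Cyp51, Lss and Sqle. Sqle thus ranked 3 of 9 in untreated transgenic liver and last in untreated wild-type liver. Neighbours whose libraries overlapped were Sqle with Ebp and Ebp with Cyp51 in untreated transgenic liver. In untreated wild-type liver they were Msmo1 with Hsd17b7, Hsd17b7 with Dhcr7, Nsdhl with Cyp51 and Cyp51 with Lss. In transgenic liver with LPS every neighbouring pair overlapped.

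The upper arm was read beside these genes. Of 10 mevalonate arm genes 9 were tested, and Mvd was left out because its row carries the same values as other gene names. In the average over treatments 1 of 9 was higher in transgenic liver (0.0698% of all features were) and none lower, with a median difference of 2.02. That gene was Fdps, farnesyl diphosphate synthase, at 14.3 and 60.02 FPKM in transgenic with LPS and 58.5 and 40.0 FPKM in untreated transgenic liver, against 2.80 and 1.98 FPKM in wild type with LPS and 2.75 and 2.104 FPKM in untreated wild type (3.52, adjusted p = 0.0426 in limma). Hmgcs1, which makes the precursor of mevalonate, held 24.6 and 268 FPKM in transgenic with LPS and 368 and 336 FPKM in untreated transgenic liver, against 15.5 and 16.9 FPKM in wild type with LPS and 17.2 and 18.1 FPKM in untreated wild type (3.26, adjusted p = 0.197). Fdft1, which makes squalene, differed by 2.02 (adjusted p = 0.405) and Pmvk, a mevalonate pathway kinase, by 1.78 (adjusted p = 0.0667). Replicate 1 was the lower of the 2 transgenic LPS libraries for each of these 4 genes. Ggps1, of the same list and chosen after its values were seen, did not follow. It held 4.62 and 4.31 FPKM in transgenic with LPS, and its genotype difference was 0.06 (adjusted p = 0.972 in limma).

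Of 7 entries for other genes of the lower arm 4 were tested, and 0 of 4 passed in the genotype average. Tm7sf2 was left out because its row is shared with another gene name. The names Erg28 and Faxdc2 were not matched directly. 0610007P14Rik, named Erg28 in RefSeq and known as a scaffold of the demethylation enzymes in yeast, differed by 0.90 (adjusted p = 0.606). Lbr, a sterol reductase of the nuclear envelope, rose with LPS in wild-type mice, at 6.23 and 6.55 FPKM with LPS against 3.48 and 3.01 FPKM untreated (0.80, adjusted p = 0.00515 in limma). In transgenic mice Lbr was at 7.61 and 9.08 FPKM with LPS against 6.05 and 6.15 FPKM untreated (0.39, adjusted p = 0.0747 in limma). Averaged over genotypes Lbr rose by 0.60 (adjusted p = 0.00261 in limma), where 20.6% of all features were higher. Pgrmc1, a heme-binding partner of P450 enzymes, fell with LPS in transgenic mice, at 204 and 339 FPKM with LPS against 508 and 497 FPKM untreated (-0.93, adjusted p = 0.0268 in limma). In wild-type mice Pgrmc1 was at 383 and 383 FPKM with LPS against 538 and 536 FPKM untreated (-0.48, adjusted p = 0.192 in limma). Its average over genotypes was -0.71 (adjusted p = 0.0145 in limma). Neither gene passed for the interaction (adjusted p = 0.518 for Lbr and 0.66 for Pgrmc1 in limma). Of all features 16.2% were higher with LPS in wild type and 10.5% lower in transgenic mice.

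Of 20 entries for SREBP2 and its regulators 18 were tested. In the genotype average 0 of 18 passed in limma and 6 had an unadjusted p under 0.05, with a median difference of 0.16. Insig1, the protein that retains SREBP in the endoplasmic reticulum and is itself an SREBP target, held 28.4 and 126 FPKM in transgenic with LPS and 154 and 129 FPKM in untreated transgenic liver, against 18.4 and 17.9 FPKM in wild type with LPS and 23.8 and 14.8 FPKM in untreated wild type (2.26, adjusted p = 0.169). Scap, the escort protein of SREBP, differed by -0.04 (adjusted p = 0.981). Insig2, a second retention protein, differed by 0.63 (adjusted p = 0.832). Srebf2, the gene of SREBP2 itself, was chosen after its values were seen and differed by 1.00 (adjusted p = 0.455). With LPS in wild-type mice 4 of the 18 passed, where 21.6% of all features did (16.2% higher and 5.41% lower), so the count is near the background. Of these, 2 rose (Mylip, which marks the LDL receptor for breakdown, by 0.73, and Srebf1 by 0.78) and 2 fell (Syvn1 by 0.62 and Ufd1l by 0.66 on the log2 scale). With LPS in transgenic mice 3 of the 18 passed, where 26.5% of all features did. Mylip rose by 1.04, and Srebf1 and Nfyb, an NF-Y subunit, fell by 0.78 and 0.69 on the log2 scale. Srebf1 thus moved in opposite directions in the 2 genotypes, but its interaction of -1.56 did not pass (adjusted p = 0.294 in limma). With LPS averaged over genotypes 2 of the 18 rose and 3 fell, where 20.6% of all features were higher and 15.8% lower. The NF-Y subunits did not move together there. Nfya rose (0.42, adjusted p = 0.0183 in limma), Nfyb fell (-0.54, adjusted p = 0.0094) and Nfyc differed by 0.05 (adjusted p = 0.765). With FPKM rescaled to a common total, a setting chosen for these genes after seeing the data, the LPS changes within a genotype kept their direction, but Syvn1 moved to -0.37 and Ufd1l to -0.41 in wild-type mice.

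**Figure D4:**
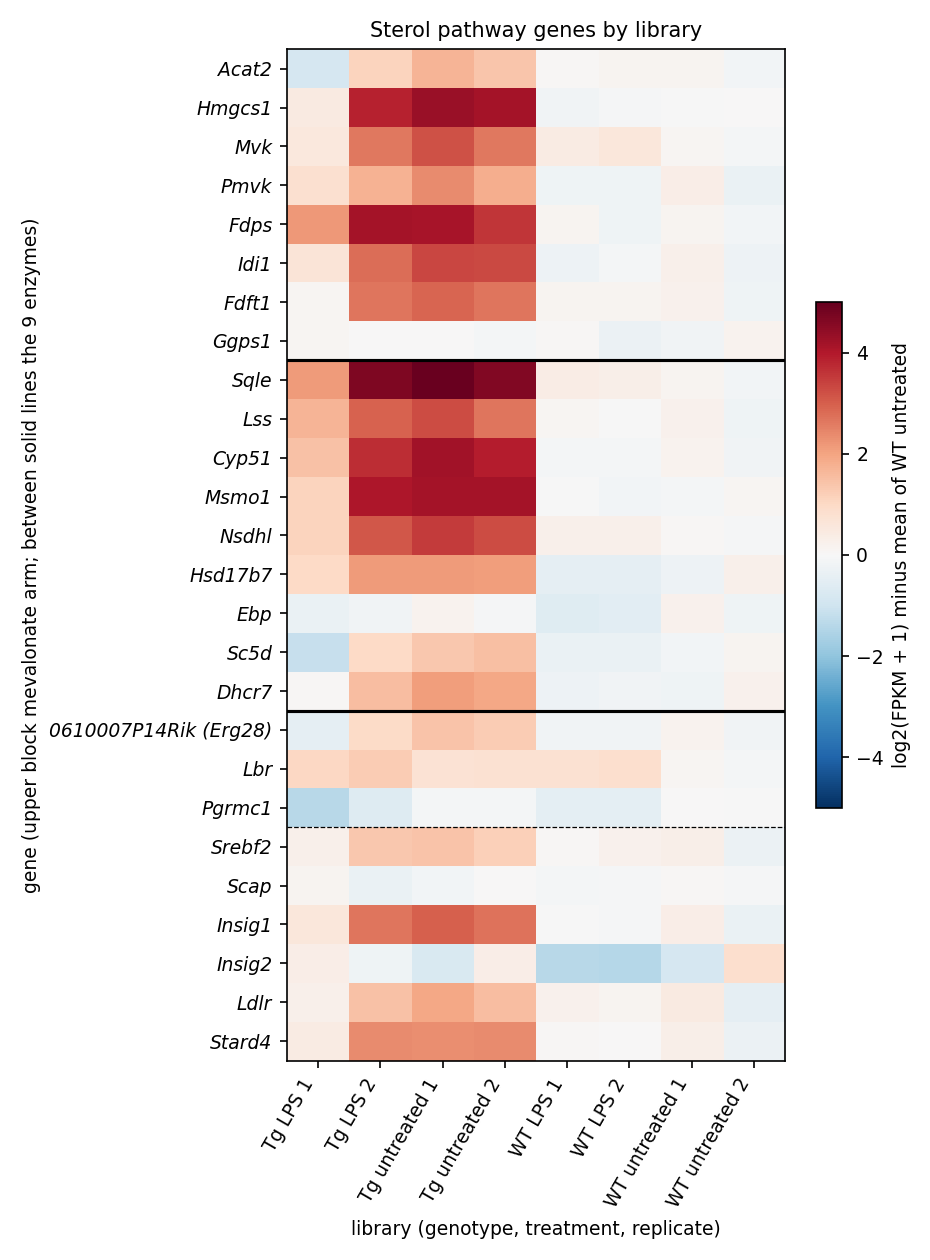
Colour shows log2(FPKM + 1) minus the mean of untreated wild type in each of the 8 libraries, with red for higher and blue for lower; rows are mevalonate arm genes, the 9 enzymes between the solid lines, other lower arm genes and, under the dashed line, genes of SREBP2 control. The untreated transgenic libraries and replicate 2 of transgenic with LPS are red over most rows of both arms, and replicate 1 of transgenic with LPS is paler or blue.

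The features most like the mean profile of the 9 genes over the 8 libraries were Rdh11 (Pearson r = 0.994, Spearman rho = 0.976), Idi1 (r = 0.994, rho = 0.929), the shared row of Acsl3 and Utp14b (r = 0.992, rho = 0.81), Hmgcs1 (r = 0.991, rho = 0.952) and Insig1 (r = 0.990, rho = 0.929). They are the top 5 after unnamed gene models, such as names ending in Rik, were taken out of 9550 features. Those 9550 had a mean of at least 2 FPKM and did not include the 9 genes. The values are a description over 8 libraries that fall into high and low sets, with no p. Rdh11, a retinol dehydrogenase, held 11.2 and 33.2 FPKM in transgenic with LPS and 35.3 and 27.2 FPKM in untreated transgenic liver, against 6.11 and 5.74 FPKM in wild type with LPS and 7.38 and 6.69 FPKM in untreated wild type. Among the 9 genes, r with the mean of the others was 0.967 to 0.997 in 7, 0.79 for Sc5d and 0.478 for Ebp.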

How the data were processed

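RNA was sequenced from whole liver of 8 mice in 4 groups of 2. The authors deposited 1 table of FPKM values with a column per library. Per the submitters' processing notes, the tools included Cuffdiff (2.2.1), Cufflinks, Bowtie2 (2.2.6) and TopHat2 (2.1.0), with build mm10, the same assembly as GRCm38. For the gene annotation, trimming, filters and library scaling the answer is: not given in the sources used here. FPKM can shift with library composition, so 2 rescalings were tried. Because the values are not counts, no count test was run, and no counting interval is given.

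For a repeated name the row with the highest sum was kept, and names with identical values in all libraries formed 1 feature, which left 17294 features above 0. The 11463 features that reached 1 FPKM in 2 or more libraries were tested as log2(FPKM + 1) with limma 3.58.1 (R 4.3.3), with 1 mean per group, 4 residual degrees of freedom and a mean-variance trend. The pseudocount of 1 understates differences of low genes. The 7 contrasts were LPS in each genotype and averaged, genotype in each treatment and averaged, and the interaction. Tests were 2-sided, adjusted by Benjamini-Hochberg over all features and called under 0.05. The code was tested on simulated data. Labels call the replicates biological. The 9 genes and all lists were chosen with earlier results of these data known. The 9 genes were all named, with listed pathway genes that passed and up to 4 of the most abundant per list. Also named were the 5 features nearest in pattern, and Srebf2 and Ggps1, which are marked as chosen later. Some genes that the rule would name are not reported here. The settings varied were the pseudocount (0.1), the filter (none, or 5 FPKM), quantile normalization, rescaling of FPKM to a common total, the compared groups alone, the replicate number as a block, and leaving out each library.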

Additional observations from a re-analysis of the deposited data

Results flagged for a closer look

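Nsdhl was picked out because the 2 genotypes moved in opposite directions with LPS in every library. It held 11.1 and 46.9 FPKM with LPS against 62.0 and 52.3 FPKM untreated in transgenic liver, and 5.67 and 5.68 FPKM with LPS against 4.77 and 4.38 FPKM untreated in wild-type liver. In transgenic liver 36.2% of all features had both LPS libraries below both untreated ones. In wild-type liver 30.5% had both LPS libraries above, and the share with both patterns was not counted. The rise in wild type was 0.26 (adjusted p = 0.757 in limma). In transgenic liver replicate 1 held 19.5% and replicate 2 held 82.0% of the untreated mean. The difference between the LPS changes was -1.53 on the log2 scale (SE 0.74, adjusted p = 0.52 in limma), so the test of the difference itself did not pass. Groups of 2 libraries are too small for a check of outlying samples.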

How the results depend on the processing

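The genotype differences of the 9 genes kept their direction under every alternative, except Ebp untreated (-0.15 to 0.27 leaving out 1 library) and Sc5d with LPS (-0.85 to 1.31). Counts of genes called, of 9, were as follows when 1 library was left out: 0 to 8 in the untreated genotype contrast, 0 to 6 with LPS, 0 to 8 in the genotype average, 0 to 8 for LPS in transgenic mice, 0 to 1 for LPS in wild type, 0 to 9 for LPS averaged, and 0 to 6 for the interaction. The counts over all features were 2 to 44, 0 to 425, 0 to 182, 1238 to 3629, 1244 to 3438, 2703 to 4774 and 0 to 279 for the same contrasts in that order. A group left with 1 library is assumed to vary like the others.

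With only the groups compared, 5 of the 9 and 22 features passed in the untreated genotype contrast. With no filter 0 features passed there, 1 with LPS, 0 in the genotype average (0 of the 9) and 0 for the interaction. With the filter of 5 FPKM the LPS counts were 1835 in transgenic, 1379 in wild type and 2698 averaged. Quantile normalization gave 0 of the 9 for LPS averaged, 1 feature for genotype with LPS and 0 for the interaction. Rescaling to a common total gave 2 of the 9 and 12 features in the untreated genotype contrast, 27 features in the genotype average and 0 of the 9 for LPS averaged.

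Replicate numbers are shared between groups but the labels do not pair the mice, and the correlations of replicate deviations between groups ran from 0.0434 to 0.459. With the replicate number as a block, 0 of the 9 and 1 feature passed in the genotype average, 1 of the 9 (Dhcr7) for LPS in transgenic mice and 2 features for the interaction.

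Small LPS values changed sign. Leaving out 1 library gave -1.10 to 0.017 for Hsd17b7 in transgenic mice. In wild type it gave -0.28 to 0.079 for Cyp51, -0.17 to 0.26 for Lss, -0.19 to 0.016 for Msmo1 and -0.42 to 0.013 for Dhcr7. For LPS averaged it gave -1.15 to 0.11 for Sqle and -0.61 to 0.011 for Lss, and for the interaction -0.66 to 0.45 for Hsd17b7. Quantile normalization gave 0.033 for Ebp with LPS in transgenic mice, -0.10 for Lss in wild type and 0.12 for the interaction of Hsd17b7. Rescaling gave 0.13 for Cyp51, 0.18 for Msmo1 and 0.052 for Dhcr7 with LPS in wild type. The cause was not tested.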
